A study of Arabidopsis thaliana with 11 samples.

Results

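AT1G67480 (a kelch repeat F-box protein), AT3G19390 (a papain-like cysteine protease with a granulin repeat), AT5G58787 (ATAIRP4, a RING-type ubiquitin ligase), AT1G72070 (a DnaJ-domain chaperone) and AT4G10250 (ATHSP22.0, a small heat shock protein) are Arabidopsis genes of protein breakdown and protein folding. They were taken by their gene codes, and the array platform's table pairs each of the 5 with 1 probe set, so that 5 of the 19525 features tested are described here. They were selected on their measured intensities in the only contrast of the series, 4tU-bZIP1 against 4tU-EV, and on their annotation: AT1G67480 and AT3G19390 stand in the study's list of genes induced by bZIP1, AT5G58787 and AT1G72070 in its list of repressed genes, and AT4G10250 in neither. Their differences between the groups are therefore given as a description, with no test.

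The samples were Col-0 root protoplasts, plant cells without their walls, and each array carries RNA labeled with 4-thiouracil (4tU), which cells take up only into transcripts made while it is present. The 6 arrays of 4tU-bZIP1 came from cells transfected with 35S::GR::bZIP1, in which the viral 35S promoter drives the transcription factor bZIP1 fused to the ligand-binding part of the glucocorticoid receptor (GR), and the 5 arrays of 4tU-EV came from cells transfected with the empty vector pJD385_35S::GR, which makes GR alone. The cells of both groups received nitrogen salts (20 mM, for 100 min by the labels), cycloheximide (35 uM, 20 min), dexamethasone (10 uM, 5 h), which lets the GR fusion enter the nucleus, and then 1.5 mM 4tU with 0.2 mM uracil for 20 min. Cells with the vector's red fluorescent protein were sorted, and the labeled RNA was pulled down, amplified and hybridized to ATH1 arrays, 1 array for each biological replicate. As a model this is transient overexpression from a promoter active in most cell types, with protein synthesis blocked by cycloheximide, in cells freed from root tissue by wall digestion.

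Cells remove proteins along 2 main routes. In the first, a ubiquitin ligase marks a protein for the proteasome. F-box proteins such as the kelch repeat kind select substrates for the SCF ligases, and RING-type ligases such as ATAIRP4, which is studied for its part in abscisic acid responses, hand ubiquitin to the substrate directly. In the other route proteins are cut by proteases, and papain-like cysteine proteases do much of this in the vacuole. Chaperones act before breakdown: small heat shock proteins hold unfolding proteins in a soluble state, DnaJ-domain proteins bring them to HSP70 and stimulate its ATPase, and ATHSP22.0 works in the endoplasmic reticulum.

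The intensities are linear GCRMA values, a scale that compares arrays for 1 probe set and does not rank genes against each other. The lowest value of the table, 4.92, stood on every array for 26.1 to 29.8% of the probe sets. The array that differed most was 4tU-bZIP1 replicate 1. Its median correlation with the other arrays was 0.878, against 0.943 to 0.965 for the others, and 6677 of its probe sets reached an intensity of 32, against 7262 to 7628. Values without this array are given beside those of each gene. A gene counts as measured here only where a probe set with its name is at hand. A further 7640 features have no gene name, so genes not counted may still be on the array. Of 12 root marker genes 2 were measured. MYB66, of the root epidermis, spanned 6.98 to 146 on the 4tU-bZIP1 arrays and 6.08 to 66.0 on the 4tU-EV arrays. EXPA7, of root hairs, spanned 4.93 to 55.0 and 4.93 to 5.18 on the same groups of arrays. MYB66 has a name only from the study's list of induced genes, and its medians were 18.9 in 4tU-bZIP1 and 7.38 in 4tU-EV. The median of EXPA7 was 4.93 in both groups, close to the lowest value. Of 10 leaf marker genes only RCA was measured, and it stayed between 5.33 and 8.12, close to the lowest value.

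AT1G67480, the kelch repeat F-box gene, had the widest separation of the 5. On the 6 4tU-bZIP1 arrays its intensity was lowest at 833, had a median of 1182 and was highest at 1575. The 5 4tU-EV arrays read 263, 179, 193, 287 and 283. The groups did not overlap: the dimmest 4tU-bZIP1 array was 2.90-fold brighter than the brightest 4tU-EV array. The means were 1224 ± 295 (SD, n = 6) for 4tU-bZIP1 and 241 ± 51.4 (SD, n = 5) for 4tU-EV, a ratio of 5.08, and the log2 difference, 4tU-bZIP1 minus 4tU-EV, was 2.34 with a standard error of 0.20. Each 4tU-bZIP1 array lay 1.82 to 2.74 above the mean of 4tU-EV on the log2 scale, and leaving out any 1 array kept the difference between 2.23 and 2.44, with 2.36 without 4tU-bZIP1 replicate 1. In sorted populations such as these, a change in the cell types present and one in labeled RNA per cell cannot be told apart. This holds for all 5 genes.

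AT3G19390, the granulin-repeat cysteine protease, was also brighter on every 4tU-bZIP1 array than on any 4tU-EV array. Its lowest, median and highest intensities were 1373, 2086 and 2582 on the 4tU-bZIP1 arrays, and the 4tU-EV arrays read 795, 774, 1100, 931 and 509. The margin was small: the dimmest 4tU-bZIP1 array, replicate 3, was 1.25-fold brighter than the brightest 4tU-EV array, also a replicate 3. The labels do not say whether arrays of the same number were prepared together. The means were 2055 ± 391 (SD, n = 6) for 4tU-bZIP1 and 822 ± 218 (SD, n = 5) for 4tU-EV, a ratio of 2.50, and the log2 difference was 1.34 with a standard error of 0.21. Leaving out 1 array gave 1.18 (without 4tU-EV replicate 5) to 1.46 (without 4tU-EV replicate 3), and without 4tU-bZIP1 replicate 1 the difference was 1.27.

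AT5G58787, the ubiquitin ligase ATAIRP4, was dimmer on the 4tU-bZIP1 arrays, and its arrays spread the most of the 5 genes. The 6 4tU-bZIP1 arrays, in the order of their replicate numbers, read 4.92, 130, 134, 202, 139 and 61.8, and the 4tU-EV arrays read 205, 230, 315, 233 and 106. Every 4tU-bZIP1 array was below the mean of 4tU-EV, but the groups overlapped, since 4tU-EV replicate 5 was dimmer than 4 of the 4tU-bZIP1 arrays. The means were 112 ± 68.9 (SD, n = 6) for 4tU-bZIP1 and 218 ± 75.1 (SD, n = 5) for 4tU-EV, and the log2 difference was -1.50 with a standard error of 0.89.

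Much of that log2 difference rests on 1 array. On 4tU-bZIP1 replicate 1 the probe set of AT5G58787 was at the lowest value of the table, with a deviation of -5.38 from the mean of 4tU-EV on the log2 scale. Without that array the log2 difference was -0.72 with a standard error of 0.37, and the mean of 4tU-bZIP1 was 134 ± 49.8 (SD, n = 5). With intensities under 16 raised to 16 the difference was -1.21, and with arrays weighted by their quality it was -1.05. On 4tU-bZIP1 replicate 1, 11 features were at the lowest value while they reached 32 on all other arrays. There was 1 such feature on 4tU-bZIP1 replicate 6 and 0 on each of the remaining 9 arrays. The part of the array's quality in this reading was not tested. The pooled SD of AT5G58787 within groups, 1.53 on the log2 scale, was larger than that of 98.2% of the 7000 features with a mean log2 value of at least 5.

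AT1G72070, which encodes a protein with the DnaJ domain that binds HSP70, was dimmer on the 4tU-bZIP1 arrays by a smaller and steadier margin. Its 4tU-bZIP1 arrays had a lowest intensity of 134, a median of 160 and a highest of 211. The 4tU-EV arrays read 358, 277, 269, 286 and 184. Of the 6 4tU-bZIP1 arrays 4 were below every 4tU-EV array, and the overlap came from 4tU-EV replicate 5. The means were 164 ± 33.2 (SD, n = 6) for 4tU-bZIP1 and 275 ± 61.9 (SD, n = 5) for 4tU-EV, and the log2 difference was -0.73 with a standard error of 0.18. It stayed between -0.87 and -0.63 when any 1 array was left out, and was -0.77 without 4tU-bZIP1 replicate 1.

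AT4G10250 (ATHSP22.0) had widely overlapping ranges in the groups, with that of 4tU-bZIP1 somewhat lower. Its 4tU-bZIP1 arrays had a lowest intensity of 459, a median of 712 and a highest of 919, and the 4tU-EV arrays read 622, 1081, 858, 581 and 1060. Only 2 of the 6 4tU-bZIP1 arrays, replicates 2 and 3, fell below all 4tU-EV arrays, and replicate 1 was above the mean of 4tU-EV. The means were 683 ± 181 (SD, n = 6) for 4tU-bZIP1 and 840 ± 236 (SD, n = 5) for 4tU-EV. The log2 difference was -0.30 with a standard error of 0.24, and it was -0.39 without 4tU-bZIP1 replicate 1. Leaving out 1 array gave -0.42 (without 4tU-EV replicate 4) to -0.19 (without either 4tU-bZIP1 replicate 3 or 4tU-EV replicate 2), and array weights gave -0.46.

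**Figure D1:**
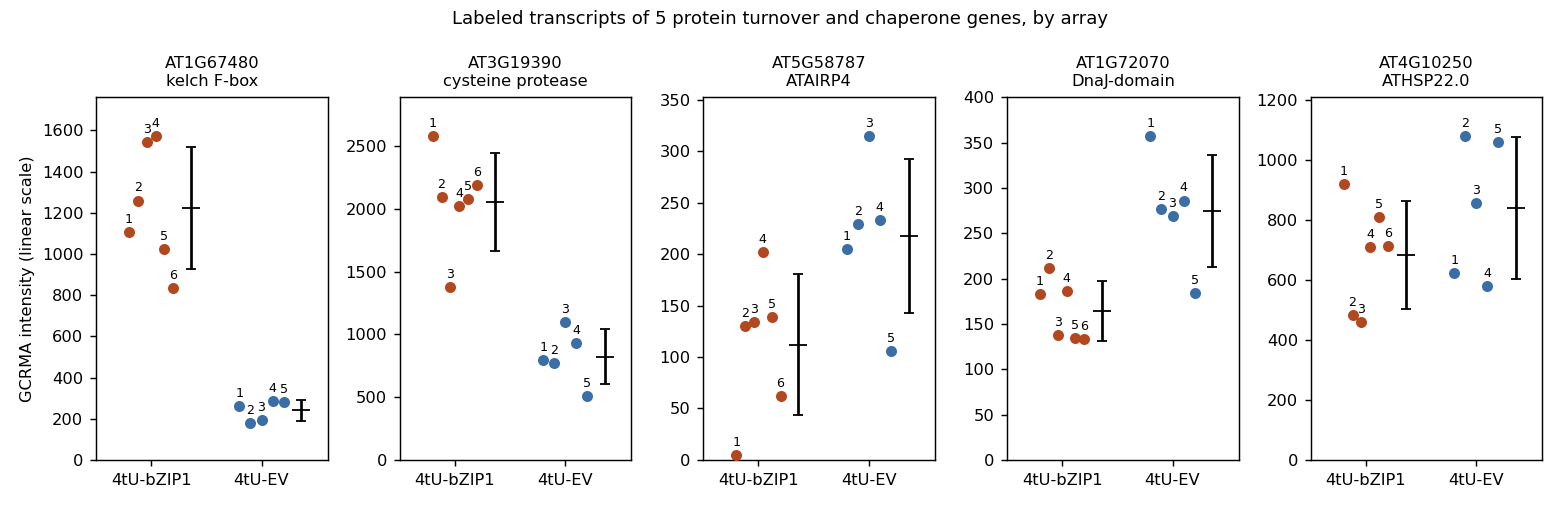
GCRMA intensity on a linear scale (vertical axis, a separate scale for each gene) of the 5 genes in 4tU-bZIP1 (left, 6 arrays) and 4tU-EV (right, 5 arrays); each point is 1 array with its replicate number, and the black bar is the mean ± SD. The 4tU-bZIP1 arrays of AT1G67480 and AT3G19390 lie above all 4tU-EV arrays, while those of AT5G58787, AT1G72070 and AT4G10250 overlap them.

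Set side by side, the 5 genes ran from a clear gain, through AT4G10250 with little separation, to lower but overlapping intensities for AT5G58787 and AT1G72070. Over the 30 possible pairs of a 4tU-bZIP1 array with a 4tU-EV array, the 4tU-bZIP1 array was brighter in 30 for AT1G67480 and in 30 for AT3G19390. It was dimmer in 28 for AT1G72070, in 26 for AT5G58787 and in 21 for AT4G10250. By the limma fit over all features, at an adjusted p under 0.1, 2 of the 5 genes were called, AT1G67480 and AT3G19390, both higher in 4tU-bZIP1, against 0.184% of all features in either direction and 0.164% in this one. None of the 5 was called lower, against 0.0205% of all features. The same 2 genes were those whose arrays did not overlap between the groups, which held for 0.855% of all features. Both counts were fixed by the choice of the genes. AT1G67480 was called in 11 of the 11 fits without 1 array. AT3G19390 was called in 3 of them, those without 4tU-bZIP1 replicate 3, 4tU-EV replicate 3 or 4tU-EV replicate 5, and it was not called in any fit without another array.

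**Figure D2:**
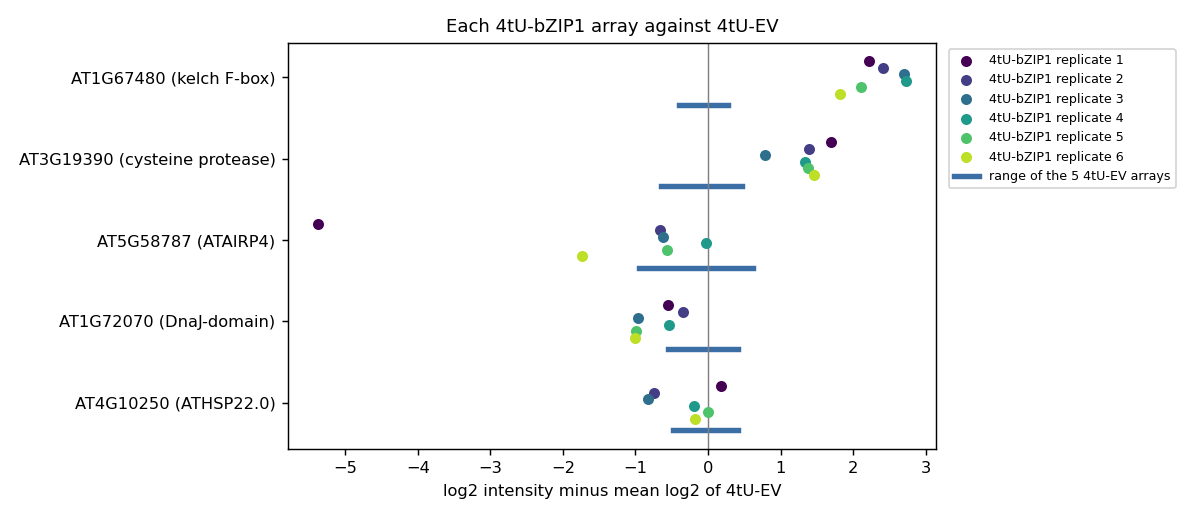
Log2 intensity of each 4tU-bZIP1 array minus the mean log2 intensity of 4tU-EV (horizontal axis) for the 5 genes; points are 4tU-bZIP1 arrays coloured by replicate number, and the blue bars below them are the ranges of the 5 4tU-EV arrays. AT5G58787 on 4tU-bZIP1 replicate 1, at -5.38, lies far from every other point.

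The scatter among replicates differed by gene and array. The coefficient of variation of AT1G67480, AT3G19390, AT1G72070 and AT4G10250 lay between 19.0% and 28.0% in both groups. AT5G58787 was the most variable in both, with 61.4% in 4tU-bZIP1 and 34.5% in 4tU-EV. The dimmest 4tU-EV array was replicate 5 for AT3G19390, AT5G58787 and AT1G72070, though not for AT1G67480 or AT4G10250, for which it was the second brightest. Without it the log2 difference was 1.18 for AT3G19390, -1.73 for AT5G58787 and -0.87 for AT1G72070.

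Whether the genes moved together from array to array was described with Pearson's r of their log2 values over the 11 arrays, which share the same 2 groups. Pooled over the groups, AT1G67480 and AT3G19390 had an r of 0.82, and AT1G67480 and AT1G72070 an r of -0.74. Once each group's mean was subtracted these became -0.49 and 0.14, so the pooled values came from the distance between the groups. AT3G19390 and AT1G72070, which lay on opposite sides between the groups, had an r of 0.53 within the groups. AT5G58787 and AT1G72070, both in the study's list of repressed genes, had an r of 0.02 within the groups and of 0.58 when 4tU-bZIP1 replicate 1 was left out. AT4G10250 had a pooled r of -0.48 with AT1G67480, -0.29 with AT3G19390, -0.21 with AT5G58787 and 0.07 with AT1G72070, and within the groups its r with AT1G67480 was -0.51.

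The genes whose pattern over the 11 arrays was most like that of each of the 5 were looked up among 3858 named genes with a mean log2 value of at least 5. For AT1G67480 they were ERD5 (r = 0.96), which encodes a proline dehydrogenase, AT4G18340 (r = 0.93) and AT1G02660 (r = 0.93). Within the groups these correlations were 0.41, 0.28 and 0.26 in the same order, so the likeness was mostly in the difference between the groups. For AT3G19390 they were AT5G66650 (r = 0.96), BCAT-2 (r = 0.94), a branched-chain aminotransferase, and the protein kinase gene STY46 (r = 0.94), with 0.75, 0.64 and 0.60 within the groups.

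For the other genes the correlations within the groups were high as well. They come from the same 11 arrays on which the highest r among 3858 genes was picked. High values arise from such a search by itself, so they are no separate sign of likeness. For AT1G72070 the nearest were AT3G54150 (r = 0.94), AT5G40590 (r = 0.92) and AT1G07135 (r = 0.91), with 0.85, 0.83 and 0.85 within the groups. For AT4G10250 they were AT3G53930 (r = 0.85), AT4G02090 (r = 0.83) and AT4G23885 (r = 0.83), with 0.83, 0.80 and 0.89 within the groups. The gene table gives these genes a code in place of a symbol, so whether any is a heat shock protein was not read here.

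For AT5G58787 the nearest genes were AT5G06730 (r = 0.98), TAFII15 (r = 0.97), a subunit of the general transcription factor TFIID, and AT2G25450 (r = 0.97). All 3 were low on 4tU-bZIP1 replicate 1, with deviations from the mean of 4tU-EV of -3.10 for AT5G06730, -5.70 for TAFII15 and -1.93 for AT2G25450 on the log2 scale. Without that array their correlations with AT5G58787 were 0.88, 0.81 and 0.81, and the 3 nearest genes were then AT4G30470 (r = 0.95), AT1G50920 (r = 0.93) and AT3G07090 (r = 0.92). The nearest genes changed for the others too: without that array, 0 of the 3 genes stayed among the nearest 3 of AT5G58787 and of AT4G10250, and 1 of 3 did for each of AT1G67480 (ERD5), AT3G19390 (STY46) and AT1G72070 (AT3G54150).

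**Figure D3:**
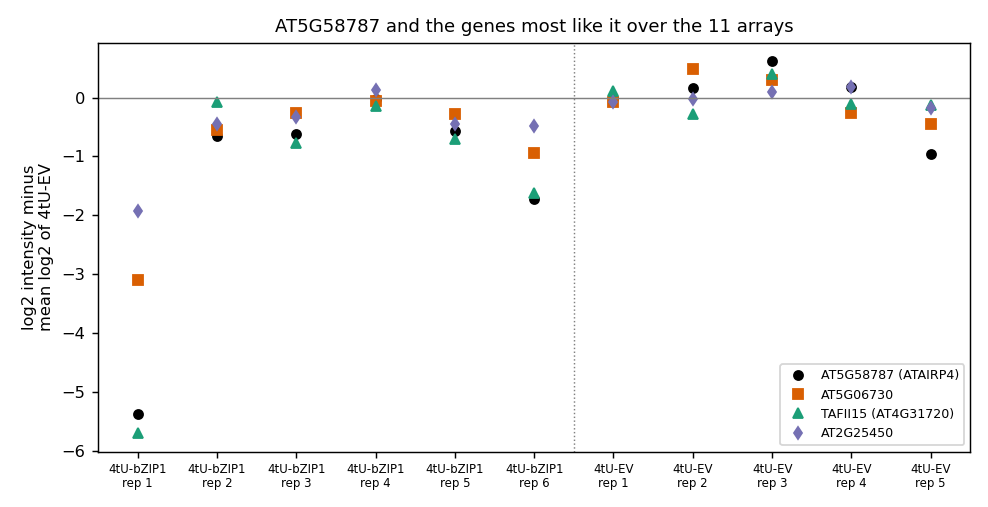
Log2 intensity minus the mean log2 intensity of 4tU-EV (vertical axis) of AT5G58787, AT5G06730, TAFII15 and AT2G25450 on the 6 4tU-bZIP1 arrays (left of the dotted line) and the 5 4tU-EV arrays (right). All 4 genes are at their lowest on 4tU-bZIP1 replicate 1, where AT5G58787 is at -5.38 and TAFII15 at -5.70.

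The genes next to the 5 on the chromosomes were read to see whether differences ran past the gene itself. Of the 20 protein-coding genes within 2 places on either side in RefSeq's gene table (assembly TAIR10.1, used for names and order only), 11 were measured. By limma 0 of the 11 were called in either direction, 3 had an unadjusted p under 0.05 (4.74% of all features did), and the lowest adjusted p was 0.705. Their log2 differences lay between -0.63 and 0.71, with a median of 0.20.

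AT1G72060 is the neighbor with a bearing on a named value, since its gene model overlaps that of AT1G72070, as does that of the long noncoding RNA gene AT1G09297. AT1G72060 spanned 364 to 1208 on the 4tU-bZIP1 arrays and 763 to 1295 on the 4tU-EV arrays, and 5 of the 6 4tU-bZIP1 arrays were below every 4tU-EV array. Its log2 difference was -0.63 with a standard error of 0.27 (limma adjusted p = 0.85), and its r with AT1G72070 was 0.84 over the 11 arrays and 0.74 within the groups. Whether labeled RNA of 1 of these genes is read by the probe set of the other was not tested. Next to AT3G19390, the gene AT3G19400 averaged 19.1 on the 4tU-bZIP1 arrays and 13.4 on the 4tU-EV arrays, with a log2 difference of 0.40 (limma adjusted p = 0.85), or 0.21 without 4tU-bZIP1 replicate 2.

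For the wider pathway, 12 lists of ubiquitin, protease and chaperone genes were read in the same fit. Of 147 genes written 129 matched the gene table by symbol, and only 16 of these have a probe set with a name at hand, so each list is represented by 0 to 4 genes. By limma 0 of the 16 were called higher and 0 lower at an adjusted p under 0.1. Of the 16, 4 had an unadjusted p under 0.05, against 926 of all 19525 features (4.74%). COP1, XBCP3, MC4 and HSF4 have a name only from the study's lists of genes called in this contrast, so their being measured rested on that call. MC4 and HSF4 are among those under 0.05, so that share cannot be set against the share of all features. The methods' one-way test also called 0, while rank product, whose calls the study joined to it, was not run. The log2 differences of the 16 lay between -1.27 and 1.42 with a median of -0.06, beside a median of 0.0014 over all 19525 features.

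The ubiquitin lists gave 5 of these genes. AFR, a kelch repeat F-box protein of light signaling like AT1G67480 in its domains, averaged 140 ± 154 (SD, n = 6) on the 4tU-bZIP1 arrays, against 82.5 ± 9.70 (SD, n = 5) on those of 4tU-EV. Its 4tU-bZIP1 arrays spanned 13.4 to 433, and its log2 difference was -0.07, or -0.57 without 4tU-bZIP1 replicate 6 and 0.43 without 4tU-bZIP1 replicate 4. AT1G23390, a code of the kelch repeat list with no matched symbol, differed by -0.30, or 0.003 without 4tU-EV replicate 4. SLY1, the F-box protein that targets DELLA repressors of gibberellin responses, averaged 11.5 in 4tU-bZIP1 and 17.0 in 4tU-EV. Its arrays did not overlap between the groups, but its intensities were low. They spanned 7.52 to 14.2 on the 4tU-bZIP1 arrays and 14.6 to 22.2 on the 4tU-EV arrays, toward the lowest value of the table. The log2 difference of -0.58 did not pass the test (limma adjusted p = 0.71).

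Among RING-type ligases, the class of ATAIRP4, 2 genes were measured under a matched symbol, and their mean differences had opposite signs. XERICO, which is linked to abscisic acid levels, averaged 65.0 ± 37.4 (SD, n = 6) on the 4tU-bZIP1 arrays, against 131 ± 37.0 (SD, n = 5) on those of 4tU-EV, with a log2 difference of -1.27 and a standard error of 0.54 (limma adjusted p = 0.85). Without 4tU-bZIP1 replicate 1 it was -0.84. COP1, a repressor of light responses, had a median of 65.6 in 4tU-bZIP1 and 27.5 in 4tU-EV. Its log2 difference of 1.42 had a standard error of 0.73 (limma adjusted p = 0.85) and was 0.79 without 4tU-bZIP1 replicate 3, on which it read 748. The study's lists hold XERICO as repressed and COP1 as induced, and COP1 has a name only from that list. AT5G53360, a code of the RING-type list with no matched symbol, differed by 0.12, or -0.09 without 4tU-EV replicate 4. RPN12a, of the regulatory particle of the proteasome, differed by 0.05.

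The protease lists gave 6 genes matched by symbol. XBCP3, a papain-like protease with a granulin domain like AT3G19390, had a median of 103 in 4tU-bZIP1 and 74.3 in 4tU-EV. Its log2 difference of 1.37 had a standard error of 0.74 (limma adjusted p = 0.85) and was 0.84 without 4tU-bZIP1 replicate 3. The metacaspase MC4 averaged 1604 ± 189 (SD, n = 6) on the 4tU-bZIP1 arrays, against 1101 ± 269 (SD, n = 5) on those of 4tU-EV, with a log2 difference of 0.57 and a standard error of 0.17 (limma adjusted p = 0.69), and 4 of its 6 4tU-bZIP1 arrays were above every 4tU-EV array. Both have a name only from the study's list of induced genes, so their direction was set before they were read here. GAMMA-VPE, a vacuolar processing enzyme that matures other proteases, differed by 0.35 (limma adjusted p = 0.85), or 0.17 without 4tU-bZIP1 replicate 3, and CP1, another papain-like protease, by -0.15 near the lowest value of the table. Codes of the papain-like list with no matched symbol were also measured. AT1G02305 differed by -0.88, AT4G01610 by -0.32, AT4G16190 by -0.30, AT2G21430 by 0.05, AT3G45310 by 0.14 and AT3G19400 by 0.40. Without 4tU-bZIP1 replicate 1, AT1G02305 was at -0.01, AT4G01610 at -0.03, AT4G16190 at -0.18 and AT2G21430 at -0.31. None of these codes was called.

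The chaperone lists gave 5 genes matched by symbol, with log2 differences between -0.35 and 0.02. Hsp70-2 averaged 800 ± 156 (SD, n = 6) on the 4tU-bZIP1 arrays, against 1014 ± 173 (SD, n = 5) on those of 4tU-EV, a log2 difference of -0.35 (limma adjusted p = 0.85). ATERDJ3B, a J-domain protein of the endoplasmic reticulum and so of the class of AT1G72070, differed by -0.13. HSF4 is a class B heat shock factor that has a name only from the study's list of repressed genes. It averaged 4825 ± 460 (SD, n = 6) on the 4tU-bZIP1 arrays, against 5673 ± 169 (SD, n = 5) on those of 4tU-EV. All of its 4tU-bZIP1 arrays were below all of its 4tU-EV arrays, and the log2 difference of -0.24 had a standard error of 0.07 (limma adjusted p = 0.59). BZIP60 and BZIP28, regulators of the unfolded protein response in the compartment of ATHSP22.0, differed by -0.03 and 0.02.

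No gene of the small heat shock protein list, the class of ATHSP22.0, was measured under a matched symbol. A further 4 codes written into that list were measured, but the gene table holds no symbol for them, so they are given by code, and all 4 had a lower mean in 4tU-bZIP1. AT5G51440, in the study's list of repressed genes, spanned 149 to 273.1 on the 4tU-bZIP1 arrays and 273.9 to 402 on the 4tU-EV arrays, without overlap, and its log2 difference was -0.59 with a standard error of 0.16 (limma adjusted p = 0.57). AT5G37670 differed by -0.85, or -0.55 without 4tU-bZIP1 replicate 1, AT1G52560 by -0.29, or -0.18 without the same array, and AT1G53540 by -0.12 (limma adjusted p = 0.85 for each). None of the 4 passed the test.

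A larger set came from the annotation in the study's lists of genes bound by bZIP1, with the 5 genes left out. There the descriptions of 45 genes matched a search for selected terms of protein turnover or folding. The terms were F-box, SKP1-like, RING, U-box, ubiquitin-conjugating, some protease families, DnaJ, heat shock protein and chaperonin. Other genes of protein turnover in these lists may have been missed. Of these 23 were measured, and by limma 0 were called higher and 0 lower, with 5 of 23 at an unadjusted p under 0.05 (4.74% of all features) and the lowest adjusted p at 0.675. The mean was higher in 4tU-bZIP1 for 6 and lower for 17, with a median log2 difference of -0.17. Over all features the mean was higher for 10068 and lower for 9457. These signs include AT1G66490, AT4G00690, AT1G22080 and AT5G36260, whose medians were 4.92 in both groups, the lowest value of the table. The median of -0.17 is the difference of AT1G66490, which was 0.01 without 4tU-EV replicate 5. Among the 5 at an unadjusted p under 0.05 was AT2G20560, annotated as a DNAJ heat shock protein. It averaged 1489 ± 153 (SD, n = 6) on the 4tU-bZIP1 arrays, against 1780 ± 110 (SD, n = 5) on those of 4tU-EV. Its log2 difference was -0.26 (limma adjusted p = 0.67).

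The other 4 of these were annotated as F-box or RING/U-box proteins and also had a lower mean in 4tU-bZIP1. AT5G53110, of the RING/U-box superfamily, averaged 44.0 ± 6.17 (SD, n = 6) on the 4tU-bZIP1 arrays, against 85.6 ± 39.7 (SD, n = 5) on those of 4tU-EV, with a log2 difference of -0.86 (limma adjusted p = 0.67). The F-box protein AT2G27310 differed by -0.67, the RING/U-box protein AT2G42350 by -0.38, and PUB22, a U-box ligase that dampens immune responses, by -0.16 (limma adjusted p = 0.85 for each).

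**Figure D4:**
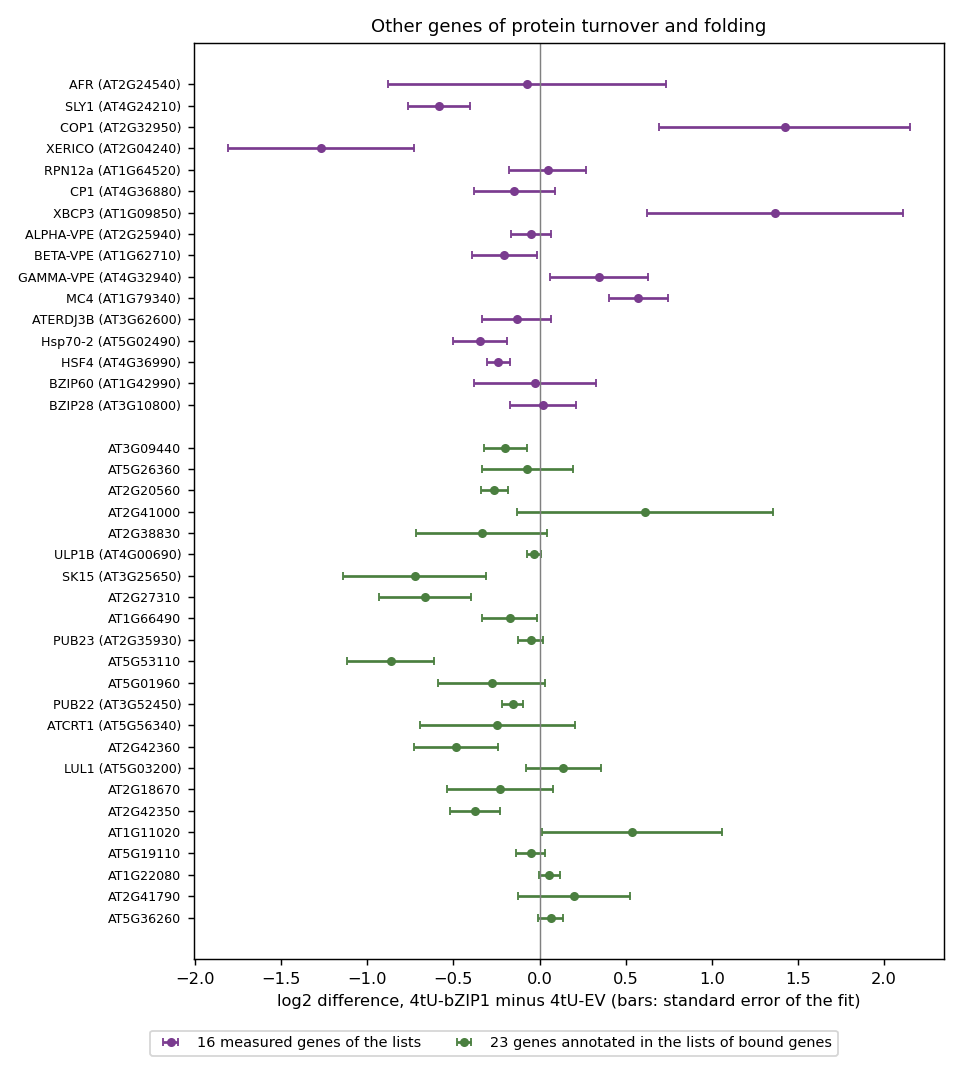
Log2 difference, 4tU-bZIP1 minus 4tU-EV (horizontal axis, with the standard error of the fit as bars), of the 16 measured genes of the 12 lists (purple) and of the 23 measured genes annotated in the study's lists of bound genes (green). All points lie between -1.27 and 1.42, and none passed an adjusted p under 0.1.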

How the data were processed

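Labeled RNA was amplified by the authors and hybridized to ATH1 arrays. They normalized with GCRMA (version not given in the sources used here) and deposited 1 linear intensity per array for 22810 probe sets. Log2 was taken of these values as they stood, with no pseudocount. Control probe sets (64), those constant over all arrays (2307), those paired with several genes (448) and unnamed ones whose suffix marks shared sequence (330) were left out. Names came from the platform's table, or for 118 probe sets from the study's lists alone, and the brightest probe set was kept for a gene, which left 19525 features, 11885 of them named. The probe set of bZIP1 itself has no name at hand and was not analysed here.

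The log2 values were fitted by lmFit and eBayes (limma 3.58.1, R 4.3.3), 4tU-bZIP1 minus 4tU-EV, with Benjamini-Hochberg adjusted p under 0.1 over all features as the threshold, after a check on simulated data. Counts and correlations were made in Python 3.11.15 (numpy 2.4.6, scipy 1.17.1, pandas 2.3.3). Precision is limited by how many arrays there are. The methods' filters for genes that respond to wall digestion or cycloheximide were not repeated.

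The 5 genes and the lists were chosen with earlier results of these data known. The genes named are the 5, the list genes past the threshold or otherwise the 2 of each list with the smallest p, and the 3 genes most like each of the 5 among those with a mean log2 value of at least 5. The annotated bound genes, of which those at an unadjusted p under 0.05 are named, the neighboring genes, the list codes with no matched symbol and the search for like genes without 4tU-bZIP1 replicate 1 were added after the data were seen. Alternatives were a threshold of 0.05, centring on the median, quantile normalization, a floor of 16, a minimum mean log2 of 5, the methods' one-way test, array weights, all probe sets, the replicate block and each array left out. The study's lists join the calls of the one-way test with those of rank product, which was not run here.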

Additional observations from a re-analysis of the deposited data

Results flagged for a closer look

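In each group of arrays, the brightest or dimmest array was set against its nearest neighbor for the 5 genes and the list and bound genes, and 15 of 88 gene and group combinations (44 genes) had an array farther off than Dixon's criterion allows. Chance alone gives about 1 in 20 where values vary freely. That rate does not apply near the lowest value of the table, 4.92, where ties are common: 8 of the 15 were at an intensity under 10, AT5G58787 included, and in 3 of these every other array of the group was at the lowest value. Of the 5 genes only AT5G58787 was among them: 4tU-bZIP1 replicate 1 read 4.92, and the next array read 61.8.

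In 4tU-bZIP1, the far array was the brightest for COP1 (AT2G32950, replicate 3, 748), CP1 (AT4G36880, replicate 4, 9.82), AT3G09440 (replicate 6, 1085), AT4G00690 (replicate 6, 5.06), AT1G22080 (replicate 6, 6.17) and AT5G36260 (replicate 1, 6.47). It was the dimmest for PUB22 (AT3G52450, replicate 5, 3465) and AT1G11020 (replicate 4, 20.7). In 4tU-EV, it was the dimmest for BZIP60 (AT1G42990, replicate 5, 1728), AFR (AT2G24540, replicate 5, 65.2) and GAMMA-VPE (AT4G32940, replicate 4, 1144), and the brightest for ALPHA-VPE (AT2G25940, replicate 4, 8.63), AT4G00690 (replicate 3, 5.65) and AT1G66490 (replicate 5, 9.26).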

How the results depend on the processing

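The log2 differences of the 5 genes kept their sign under every alternative run, and 2 of them moved by over 1.5 times: AT5G58787 to -0.72 without 4tU-bZIP1 replicate 1, and AT4G10250 to -0.46 with array weights and -0.19 without either 4tU-bZIP1 replicate 3 or 4tU-EV replicate 2. Over all features, 32 were higher and 4 lower in 4tU-bZIP1 at an adjusted p under 0.1. The higher count was 21 at an adjusted p under 0.05, 66 with array weights and 17 to 30 when 1 array was left out, being 17 without 4tU-bZIP1 replicate 5, 18 without replicate 4, 19 without replicate 2 and 19 without 4tU-EV replicate 2. The lower count was 7 with the floor of 16, 1 with a minimum mean log2 of 5, 27 with array weights, and 1 (without 4tU-bZIP1 replicate 5) to 11 (without 4tU-EV replicate 5) when 1 array was left out. With the replicate block over replicates 1 to 5, 0 features were higher and 0 lower, and without the block on the same arrays 23 were higher and 5 lower. The labels do not say whether same-numbered arrays were prepared together. Deviations of same-numbered arrays correlated at 0.01 to 0.11, but they were not set against those of other pairs, so this does not settle it. The cause of these moves was not tested. Every list had 0 genes called under each alternative, other than 1 heat shock factor with array weights. The 13 measured list codes with no matched symbol held 0 called genes and 1, AT5G51440, with an unadjusted p under 0.05 by limma, against 4.74% of all features. For AT5G58787 the correlations with the genes most like it were 0.88, 0.81 and 0.81 without 4tU-bZIP1 replicate 1.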
